A study of Mus musculus with 8 samples.

Results

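Molecular chaperones are the proteins that fold, hold, refold and hand on other proteins. This account covers the mouse genes for heat shock proteins of the small, HSP70, HSP110 and HSP90 families, the J-domain proteins of classes A, B and C, the chaperonin subunits, the BAG domain proteins and the heat shock factors Hsf1 and Hsf2, chosen by gene symbol and not by their values. The deposited table held 88 such genes among 78298 gene identifiers. Of these, 83 had a mean of at least 1 TPM (transcript abundance corrected for length, on a scale with the same total in every library) over the 8 libraries and are described here, of 19043 genes of the table at that level. The other 5 were Hspb3, Hspb7, Hspb9, Dnajb8 and Dnajc6, with mean levels of 0.135 to 0.637 TPM, and the lowest levels inside the limit were 1.21 TPM for Dnajc22 and 1.39 TPM for Cct6b. Those last 2 genes reached the limit through the AVP-flox libraries alone, with AVP-flox;Cre means of 0.993 and 0.797 TPM.

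RNA from mouse kidney, with IMCD (inner medullary collecting duct) as the stated cell type, was measured in 2 groups of 4 libraries. AVP-flox mice carried loxP sites around the vasopressin gene Avp, placed in its first intron and downstream of its 3' end. AVP-flox;Cre mice carried the same floxed Avp and a Cre recombinase, which cuts out DNA between loxP sites. Both groups are labelled with tamoxifen, the drug that activates inducible forms of Cre. The promoter driving Cre, the age of the mice and the time after tamoxifen are not stated in the labels, and no library had Cre without floxed Avp or floxed Avp without tamoxifen, so Cre itself and the loss of Avp cannot be told apart. The labels do not say whether replicates came from separate animals, and the p-values then measure only the spread between these samples, which may be technical in part. By sex-linked genes, each group held male and female libraries, so neither came from 1 animal alone. Libraries of the same sex may still share an animal.

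Small heat shock proteins hold unfolding proteins without using ATP, and HSP70 proteins then bind and release them in a cycle that J-domain proteins start and that HSP110 and BAG proteins help to end by exchanging nucleotide. HSP90 completes the folding of kinases and receptors, while the barrel-shaped chaperonins fold actin and tubulin in the cytosol and imported proteins in mitochondria. Cells of the renal inner medulla live in high and changing concentrations of salt and urea, and are known for large amounts of alpha-B-crystallin (Cryab) and for HSP70-type chaperones that osmotic stress induces.

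The whole table bears on these values in a few ways. Avp was listed at 0 to 0.27 TPM in every library, and since vasopressin is made in the hypothalamus this does not check the deletion. Genes above 0 TPM numbered 33576 in AVP-flox;Cre 2 and 50951 to 58232 elsewhere, and genes at 1 TPM or more numbered 23412 in AVP-flox;Cre 4 and 16608 to 20765 elsewhere. TPM keeps no read number, and library depth is therefore unknown. Of 10 inner medullary collecting duct markers, 3 fell (Aqp2, Aqp3 and Aqp4) and 3 rose (Slc14a2, Krt18 and Cdh16), with none at 0. Their summed level was 21886 to 26377 TPM in AVP-flox and 14230.1 to 16679.7 TPM in AVP-flox;Cre, with means of 23723 and 16011 TPM. The water channel gene Aqp2 alone was at 15995 ± 1467 and 6304 ± 754 TPM (mean ± SD, n = 4 per group). Aqp2 thus fell by more than the sum did, and the other markers together were higher in AVP-flox;Cre. Of 7 markers of papillary surface and urothelium 6 rose and none fell, with sums of 1786 to 2812 and 5007 to 5757 TPM, and 3 of 7 fibroblast and pericyte markers rose and none fell, with sums of 120.3 to 166 and 249 to 315 TPM. Of 6 endothelial markers 2 rose and 2 fell, with sums of 2239.5 to 2328 and 1834 to 1909 TPM. For intercalated cells 3 of 6 tested markers rose, with sums of 169 to 286 and 249.9 to 332 TPM. For leukocytes 1 of 6 rose, with sums of 168 to 415 and 241 to 423 TPM. For the thick limb and distal tubule 1 of 6 rose and none fell, although 5 of the 6 estimates were negative (median log2 fold change -0.82). Their sum was 389 TPM in AVP-flox 2, 2013 to 2397 TPM in the other AVP-flox libraries and 598 to 867 TPM in AVP-flox;Cre, and 4 of the 6 fell and 1 rose without AVP-flox 2 (median -1.43). None of the 6 tested proximal tubule markers passed, with sums of 42.8 to 678 and 94.6 to 247 TPM. Over all genes, the test described below called 14.2% lower and 13.1% higher. No listed marker was at 0 in all libraries. The part of these shifts in the chaperone results was not tested, and in bulk RNA fewer cells of a type and less RNA per cell cannot be told apart.

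More chaperone genes fell than rose in AVP-flox;Cre. Of the 83 genes, 33 were lower (39.8%), 6 were higher (7.23%) and 44 did not pass the test (limma with a mean-variance trend on log2(TPM + 1), two-sided, adjusted p at most 0.05 after Benjamini-Hochberg over all 19043 genes). Over all genes tested, 14.2% were lower, 13.1% were higher and 27.3% passed in either direction. The median log2 fold change of the chaperone genes, AVP-flox;Cre minus AVP-flox on that scale, was -0.22, against -0.01 over all genes tested. Among the 81 whose mean was at least 1 TPM in both groups, which leaves out Dnajc22 and Cct6b, 32 were lower (39.5%) and 6 higher (7.41%). For 32 chaperone genes (38.6%) every AVP-flox;Cre library was below every AVP-flox library, and for 5 (6.02%) every one was above, while the shares over all genes tested were 14.9% and 14.7%. For each gene whose groups did not overlap, an exact two-sided permutation test of the mean TPM gave p = 0.0286, the smallest that the 70 splits of 4 against 4 allow. Highly expressed genes pass such tests more often. At a mean level of 5 TPM or more there were 77 chaperone genes, of which 32 fell (41.6%) and 6 rose (7.79%), and 19.3% of all genes at that level fell and 17.1% rose. Most of the 77 lay well above 5 TPM, so these shares are not those of genes matched in level. The counts by family, compartment and list given below are to be read beside the same shares over all genes.

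**Figure D1:**
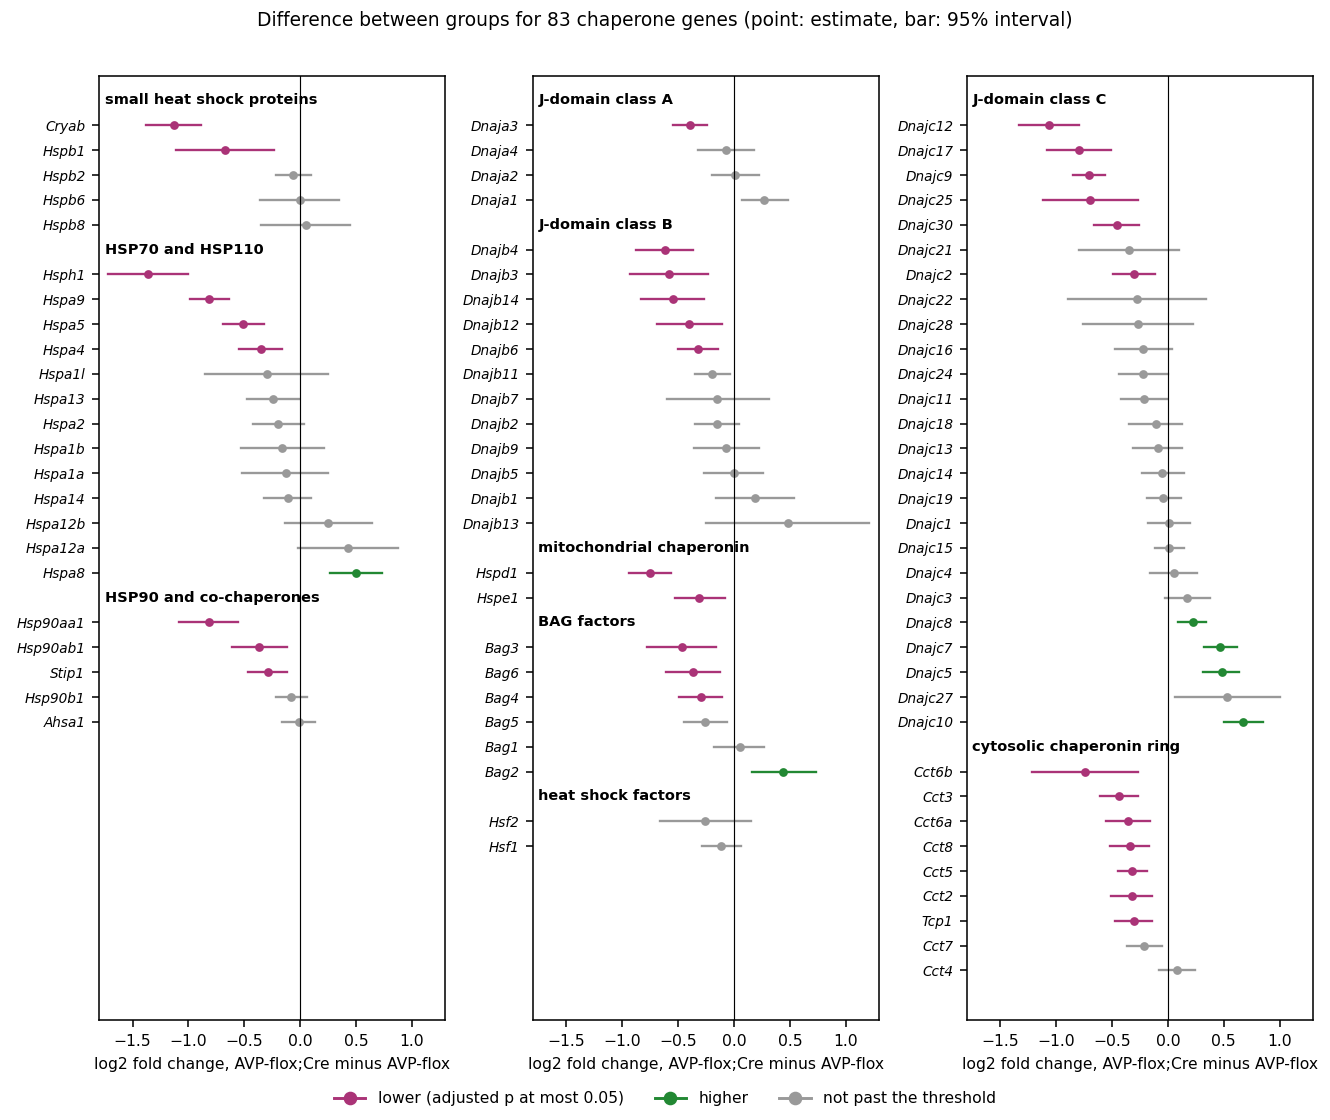
Log2 fold change on the log2(TPM + 1) scale (x axis, AVP-flox;Cre minus AVP-flox) with its 95% interval for the 83 chaperone genes described, arranged by family and coloured by call. The values run from -1.36 for Hsph1 to 0.67 for Dnajc10, and the 33 genes called lower outnumber the 6 called higher.

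The 33 lower genes were summarised in each library. Relative to each gene's mean in AVP-flox, their median deviation was 0.08, 0.05, 0.00 and -0.17 on the log2 scale in AVP-flox 1 to 4, and -0.42, -0.42, -0.51 and -0.45 in AVP-flox;Cre 1 to 4. AVP-flox 4 was thus the AVP-flox library nearest to the AVP-flox;Cre group, and these genes were chosen by the same contrast, so the separation itself is a description. Of the 39 calls, 20 lower and 4 higher ones held when any 1 library was left out, and the other 15 ended without some library. Without AVP-flox 2, the AVP-flox library with the low thick limb sum, 25 chaperone genes were lower and 6 higher. With 3 libraries left out together (AVP-flox 2 with replicates 2 and 4 of AVP-flox;Cre), 13 chaperone genes were lower and 4 higher. Of the 22 calls that ended then, 8 had held without any 1 library, namely those of Hspa4, Hspa8, Dnajb6, Dnajb14, Dnajc30, Tcp1, Cct6a and Cct8. By Xist against Y-linked genes, AVP-flox 1 and replicates 1 and 2 of AVP-flox;Cre came from males, and with sex as a covariate 38 of the 39 calls were kept, all but Dnajb12.

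The GC content of a transcript's 5' end was related to the comparison over all genes. Of all genes tested whose first 300 nt held over 70% GC, 24.7% were lower and 10.8% higher, against 11.7% lower and 14.7% higher where it was at most 60%. Among the 38 chaperone genes at or under 60% GC, 15 fell and 3 rose, the median log2 fold change being -0.25. Of the 35 over 60 to 70% GC, 12 fell and 2 rose (median -0.20), and of the 10 over 70% GC 6 fell and 1 rose (median -0.33). The chaperone genes thus had no steady trend over these ranges. Correction of each library for its GC trend gave 30 lower and 7 higher chaperone genes, and ended the calls of Hspa4, Dnajb14 and Bag4. Exonic bases were shared with another annotated gene in 34 of the 83 genes (GENCODE M21), and the sources used here do not say whether reads were counted by strand, so reads of such neighbours may not be told apart.

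Among the small heat shock proteins, Cryab and Hspb1 fell and 3 of the 5 tested genes did not pass. Cryab (ENSMUSG00000032060), the alpha-B-crystallin that also forms part of the eye lens, ranked 3 in mean level among all genes of the table. It stood at 14620.5, 16161, 12486 and 12515 TPM in AVP-flox 1 to 4 and at 6306, 7134, 6516 and 5425 TPM in AVP-flox;Cre 1 to 4. The AVP-flox;Cre libraries were all far below the AVP-flox libraries, with no overlap. The mean level fell 2.2-fold, from 13946 ± 1783 to 6346 ± 707 TPM (SD, n = 4), with a log2 fold change of -1.13 (SE 0.11, adjusted p = 0.000118). Cryab made up 1.25% to 1.62% of all TPM in AVP-flox libraries and 0.543% to 0.713% in AVP-flox;Cre libraries.

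Hspb2 lies next to Cryab, the 2 genes share exonic bases on opposite strands, and its protein is best known from muscle. It was at 245, 262, 247 and 228 TPM in AVP-flox and 251, 251, 223 and 219.7 TPM in AVP-flox;Cre, where the groups overlapped (log2 fold change -0.06, 95% interval of -0.22 to 0.10, adjusted p = 0.608). The TPM ratio of Cryab to Hspb2 ran from 50.6 to 61.7 in the AVP-flox libraries and from 24.7 to 29.2 in the AVP-flox;Cre libraries. This pair was chosen after its values were seen, and the ratio is given with no test.

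Hspb1, which encodes the widely expressed small heat shock protein that binds actin filaments, was at 257, 439, 302 and 211 TPM in AVP-flox and 183, 220.1, 174 and 159 TPM in AVP-flox;Cre. The groups overlapped, with AVP-flox 4 below AVP-flox;Cre 2, and AVP-flox 2 was the highest library. It had a log2 fold change of -0.67 (SE 0.20, adjusted p = 0.0297), and the call ended without AVP-flox 3 or without AVP-flox;Cre 1, 3 or 4 (adjusted p up to 0.0738). The muscle and heart proteins of Hspb6 and Hspb8 belong to the same family, and these genes had log2 fold changes of -0.00 and 0.05 that did not pass (adjusted p = 0.987 and 0.874).

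**Figure D2:**
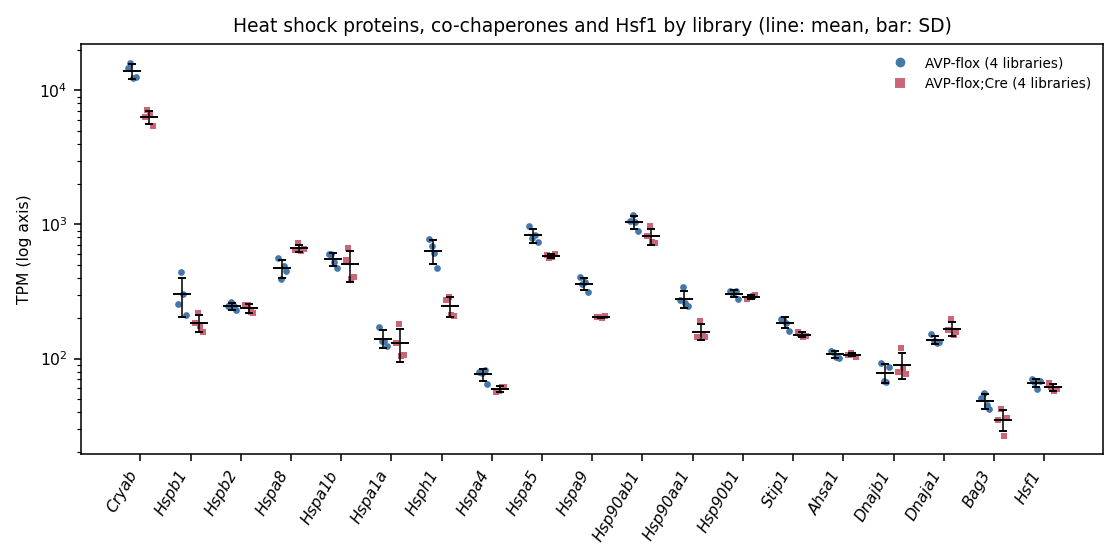
TPM on a log axis in each of the 4 AVP-flox and 4 AVP-flox;Cre libraries for 19 heat shock, co-chaperone and Hsf1 genes, with points for libraries, lines for group means and bars for the SD. Cryab is at 12486 to 16161 TPM in AVP-flox and 5425 to 7134 TPM in AVP-flox;Cre, while Hspa8 is the reverse, higher in every AVP-flox;Cre library.

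The HSP70 and HSP110 family had falls in 3 compartments and 1 rise. Of its 13 genes, Hspa4, Hspa5, Hspa9 and Hsph1 fell, Hspa8 rose and 8 did not pass. Hsph1, the HSP110 protein that resets HSP70 by nucleotide exchange and helps to dissolve aggregates, was at 773, 685, 614 and 470.1 TPM in AVP-flox and 274, 288, 211 and 207 TPM in AVP-flox;Cre. The lowest AVP-flox library was still above the highest AVP-flox;Cre library. Its mean fell from 636 ± 128 to 245 ± 42.2 TPM, 2.59-fold, and its log2 fold change of -1.36 (SE 0.16, adjusted p = 0.000317) was the lowest of the 83 genes. Its relative Hspa4 fell by 0.35 on the log2 scale, from 76.1 ± 8.04 to 59.1 ± 2.83 TPM (adjusted p = 0.0148). Hspa4l, the other cytosolic HSP110-type gene, known in the kidney medulla as an osmotic stress protein, is outside the symbols chosen here. It was at 268, 216, 202 and 152 TPM in AVP-flox and 84.5, 82.1, 65.4 and 69.4 TPM in AVP-flox;Cre, without overlap (log2 fold change -1.44, SE 0.16, adjusted p = 0.000212).

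Hspa8, the constitutive HSP70 of the cytosol that folds new proteins and uncoats clathrin vesicles, moved the other way. It was at 558, 391, 494 and 447 TPM in AVP-flox and 647, 725, 629 and 661 TPM in AVP-flox;Cre, all AVP-flox;Cre libraries being higher. The mean rose from 472 ± 70.6 to 665 ± 41.5 TPM (log2 fold change of 0.50, SE 0.10, adjusted p = 0.00594), and with the same 3 libraries left out the call ended (log2 fold change 0.36, adjusted p = 0.0623). It shares exonic bases with small nucleolar RNA genes of its own introns in the annotation. The ratio of Hspa8 to Hsph1, a substrate-binding chaperone over its exchange factor, was 0.721, 0.571, 0.805 and 0.952 in AVP-flox 1 to 4 and 2.36, 2.51, 2.98 and 3.2 in AVP-flox;Cre 1 to 4, from below 1 in each AVP-flox library to above 2 in each AVP-flox;Cre library. As with the other ratios here, the pair was chosen after the values were seen.

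The stress-inducible HSP70 genes Hspa1a and Hspa1b code for nearly identical proteins, so the split of reads between them is uncertain. Together they stood at 777, 741, 661 and 594 TPM in AVP-flox and 677, 854, 495 and 512 TPM in AVP-flox;Cre. The groups overlapped, with AVP-flox;Cre 2 the highest of all libraries and AVP-flox;Cre 3 the lowest. Singly they had log2 fold changes of -0.13 and -0.16 (95% intervals -0.52 to 0.25 and -0.53 to 0.21, adjusted p = 0.614 and 0.519). The testis-rich Hspa2 and Hspa1l, the divergent Hspa12a and Hspa12b, the microsomal Hspa13 and the ribosome-bound Hspa14 also did not pass, with log2 fold changes from -0.30 for Hspa1l to 0.43 for Hspa12a.

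Hsf1, the factor that binds heat shock elements and raises chaperone transcription when proteins unfold, was at 70.1, 67.3, 59.1 and 67.8 TPM in AVP-flox and 65.9, 60.9, 57 and 59.3 TPM in AVP-flox;Cre. The groups overlapped (log2 fold change -0.12, 95% interval of -0.29 to 0.06, adjusted p = 0.307). Hsf2, its relative, did not pass either, at 9.41 ± 2.07 and 7.72 ± 1.66 TPM (adjusted p = 0.336). These are mRNA levels, and Hsf1 is known to be controlled mainly after translation.

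The heat shock element was searched for in promoter windows. Of the windows with a match, 4 are shown, those of Hsph1, Hspe1 and Dnajb6, which fell, and that of the inducible Hspa1b, which did not pass. RefSeq windows (GRCm38.p6, 250 bases before to 50 after each annotated start) were found for 71 of the 88 genes. The element of 3 alternating units, GAANNTTCNNGAA on either strand, occurred in 198 of 32851 windows of all genes (0.603%). It was in 6 of 91 chaperone windows, which belonged to 4 genes, namely Hsph1, Hspd1, Hspe1 and Dnajb6. All 4 genes were called lower, against 39.8% of all tested chaperone genes. Windows of Hspd1 and Hspe1 overlap, so these 2 are not separate cases. The share called lower among all genes with the element was not computed, so no link to the calls is drawn. The shorter form of 2 units, GAANNTTC, which the longer form contains, was in 7.86% of all windows and in 17 of 91 chaperone windows. Of the 15 chaperone genes with it, 7 were lower, 7 did not pass, 1 was not tested and none was higher. The matches are letters in a window and say nothing of binding. The sequences below run 5' to 3' on the strand of the gene, with the match in capitals. The Hsph1 window is chr5:149636287-149636586 on the minus strand, and its match lies after the annotated start.
Hsph1: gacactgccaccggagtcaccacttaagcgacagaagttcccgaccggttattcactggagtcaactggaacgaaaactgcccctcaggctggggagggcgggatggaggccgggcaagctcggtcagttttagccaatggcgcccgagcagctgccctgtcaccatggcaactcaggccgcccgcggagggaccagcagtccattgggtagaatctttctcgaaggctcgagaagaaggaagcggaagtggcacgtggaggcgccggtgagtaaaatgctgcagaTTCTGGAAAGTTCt
The Hspe1 window is chr1:55087898-55088197 on the plus strand, and its 2 overlapping matches lie 72 to 89 bases before the start. The start of Hspd1 lies on the other strand, and 1 of its windows shares 285 bases with this one.
Hspe1: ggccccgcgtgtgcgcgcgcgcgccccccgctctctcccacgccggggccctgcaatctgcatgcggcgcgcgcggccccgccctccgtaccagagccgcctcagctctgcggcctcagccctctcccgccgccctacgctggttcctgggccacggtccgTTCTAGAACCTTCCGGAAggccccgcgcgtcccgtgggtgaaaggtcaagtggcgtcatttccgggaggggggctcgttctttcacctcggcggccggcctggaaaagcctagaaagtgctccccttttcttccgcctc
The Dnajb6 window is chr5:29735648-29735947 on the plus strand, with the match 34 to 46 bases before the start.
Dnajb6: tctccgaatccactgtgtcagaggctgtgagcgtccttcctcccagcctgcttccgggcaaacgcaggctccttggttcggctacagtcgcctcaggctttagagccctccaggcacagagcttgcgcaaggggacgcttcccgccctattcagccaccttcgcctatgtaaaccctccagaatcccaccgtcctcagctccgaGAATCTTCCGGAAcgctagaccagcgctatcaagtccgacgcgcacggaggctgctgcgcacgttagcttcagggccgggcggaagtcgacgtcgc
The Hspa1b window is chr17:34959189-34959488 on the minus strand and holds the shorter form, 97 to 104 bases before the start.
Hspa1b: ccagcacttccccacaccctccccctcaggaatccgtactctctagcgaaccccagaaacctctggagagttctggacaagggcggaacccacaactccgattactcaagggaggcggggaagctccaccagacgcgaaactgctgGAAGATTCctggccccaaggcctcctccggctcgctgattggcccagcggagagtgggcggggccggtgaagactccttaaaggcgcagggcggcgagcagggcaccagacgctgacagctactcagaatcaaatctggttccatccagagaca

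In the HSP90 group, Hsp90aa1, Hsp90ab1 and Stip1 fell, and Hsp90b1 and Ahsa1 did not pass. Hsp90aa1, the inducible cytosolic HSP90, was at 271, 339.6, 261 and 247 TPM in AVP-flox and 145, 189.9, 152 and 145 TPM in AVP-flox;Cre. No AVP-flox;Cre library reached the AVP-flox range, and AVP-flox;Cre 2 was higher than the rest of its group. The mean fell from 279 ± 41.3 to 158 ± 21.6 TPM (log2 fold change of -0.82, SE 0.12, adjusted p = 0.00095).

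Hsp90ab1, the constitutive cytosolic HSP90 and the second most abundant of the 83 genes, was at 1062, 1186, 1046 and 896 TPM in AVP-flox and 814, 975, 741 and 727 TPM in AVP-flox;Cre. The groups overlapped through AVP-flox;Cre 2, whose level was above that of AVP-flox 4. It had a log2 fold change of -0.37 (SE 0.11, adjusted p = 0.034), and the call ended without any 1 of AVP-flox 1, 2 or 3 or AVP-flox;Cre 1, 3 or 4 (adjusted p up to 0.0915) and with median-of-ratios scaling (0.0764). The ratio of the constitutive to the inducible gene ran from 3.49 to 4.01 in AVP-flox libraries and from 4.89 to 5.62 in AVP-flox;Cre libraries. Stip1, which links HSP70 to HSP90, was at 185 ± 17.4 and 151 ± 6.48 TPM (log2 fold change -0.29, adjusted p = 0.0208), a call that ended without AVP-flox 1, 2 or 3 or AVP-flox;Cre 3 (adjusted p up to 0.0597). Ahsa1, which stimulates the HSP90 ATPase, had a log2 fold change of -0.01 (95% interval -0.16 to 0.13, adjusted p = 0.904).

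**Figure D3:**
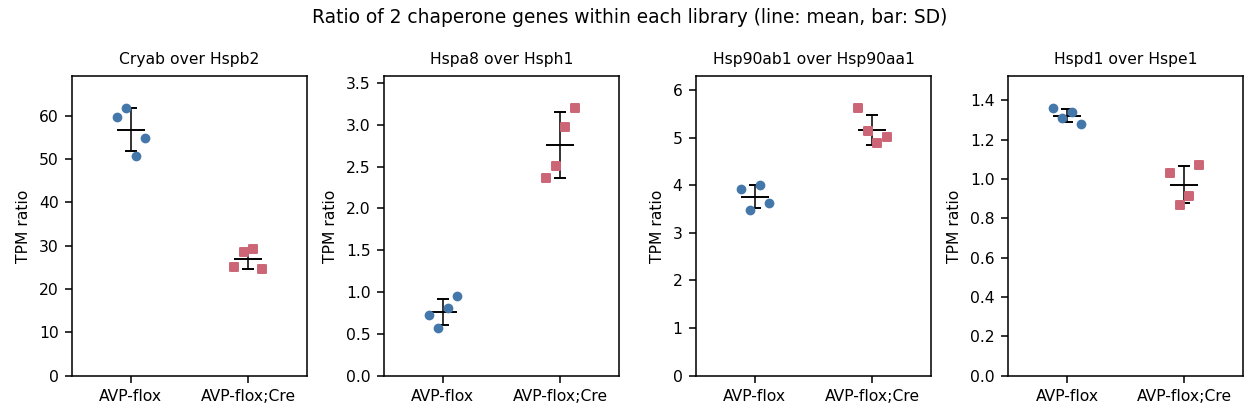
TPM ratios within each library (y axes) for Cryab over Hspb2, Hsp90ab1 over Hsp90aa1, Hspa8 over Hsph1 and Hspd1 over Hspe1, with 1 point per library, a line for the group mean and a bar for the SD. In all 4 ratios the AVP-flox and AVP-flox;Cre libraries do not overlap, and Hspa8 over Hsph1 has means of 0.762 for AVP-flox and 2.76 for AVP-flox;Cre.

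J-domain proteins deliver substrates to HSP70 and set off its ATPase. Of the 41 tested, 12 fell, 4 rose and 25 did not pass, with a median log2 fold change of -0.15. In class A, Dnaja3, which works in mitochondria, fell from 122 ± 7.71 to 92.5 ± 4.84 TPM (log2 fold change of -0.39, SE 0.07, adjusted p = 0.00302), without overlap of the groups. Dnaja1, a cytosolic partner of Hspa8, was at 151, 135, 130.2 and 134 TPM in AVP-flox and 164, 196, 150.2 and 158 TPM in AVP-flox;Cre. It missed the threshold (adjusted p = 0.0504, log2 fold change 0.27 with a 95% interval of 0.07 to 0.48) and passed it without AVP-flox 1 or AVP-flox;Cre 3 (adjusted p down to 0.0399). Dnaja2 and Dnaja4 had log2 fold changes of 0.01 and -0.07 and did not pass (adjusted p = 0.947 and 0.693).

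In class B, Dnajb3, Dnajb4, Dnajb6, Dnajb12 and Dnajb14 fell, none rose and 7 did not pass, with log2 fold changes from -0.20 for Dnajb11 to 0.48 for Dnajb13. Dnajb4, a cytosolic partner of HSP70, was at 106, 88.6, 80.8 and 82.3 TPM in AVP-flox and 48.9, 66.2, 60.3 and 55.2 TPM in AVP-flox;Cre. AVP-flox;Cre 1 was the lowest library, and the groups did not overlap (log2 fold change -0.62, SE 0.11, adjusted p = 0.00333). Dnajb6, which keeps polyglutamine proteins from aggregating, went from 72.9 ± 7.04 to 58.2 ± 1.96 TPM (log2 fold change -0.32, adjusted p = 0.0157). The membrane proteins of the endoplasmic reticulum Dnajb12 and Dnajb14 had log2 fold changes of -0.40 and -0.55 (adjusted p = 0.0473 and 0.0105). The call of Dnajb12 ended without any 1 library other than AVP-flox 1 or 4 (adjusted p up to 0.125), and that of Dnajb14 under GC correction (0.154). Dnajb3 was at 8.86 ± 1.88 and 5.55 ± 0.63 TPM, and its call (adjusted p = 0.0219) ended without AVP-flox 2 or 3 or AVP-flox;Cre 1 (up to 0.0592). Dnajb1, the main heat-inducible J-domain protein of the cytosol, was at 93, 67.5, 66.9 and 85.7 TPM in AVP-flox and 78.7, 120.2, 84.7 and 77 TPM in AVP-flox;Cre, with overlap (log2 fold change 0.19, 95% interval of -0.16 to 0.54, adjusted p = 0.412).

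Class C, the largest class with 25 of the 41 tested J-domain genes, held all 4 that rose and 6 that fell. Over all genes tested, 13.1% were higher and 14.2% lower, and at 5 TPM or more 17.1% and 19.3%. The class C counts are not read as a trait of the class. Dnajc10, a disulfide reductase of the endoplasmic reticulum, was at 61.8, 65.8, 61.7 and 54 TPM in AVP-flox and 94.3, 96.5, 93.3 and 106 TPM in AVP-flox;Cre. Every AVP-flox;Cre library was higher, and its log2 fold change of 0.67 (SE 0.08, adjusted p = 0.000303) was the highest of the 83 genes. Dnajc7, which binds both HSP70 and HSP90, rose from 121 ± 6.83 to 168 ± 9.27 TPM (log2 fold change 0.47, adjusted p = 0.0009). Dnajc5, the cysteine string protein of secretory vesicles, rose from 64.2 ± 4.69 to 89.6 ± 3.42 TPM (log2 fold change 0.48, adjusted p = 0.0013). Dnajc8, a protein of the spliceosome, rose by 0.22 on the log2 scale (adjusted p = 0.0187). That call ended without AVP-flox;Cre 3 (0.0543), and AVP-flox;Cre 1 was the lowest library of its group.

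The 6 class C genes that fell serve the nucleus, the ribosome and mitochondria among others. Dnajc12, a partner of the aromatic amino acid hydroxylases, was at 36.6, 31.1, 26.5 and 27.8 TPM in AVP-flox and 14.1, 15.7, 12.5 and 13.8 TPM in AVP-flox;Cre. The groups were far apart, and the log2 fold change was -1.06 (SE 0.12, adjusted p = 0.000232). Dnajc9, a chaperone of histones, was at 106, 97, 103 and 98.3 TPM in AVP-flox and 59.3, 62.1, 59.5 and 65.3 TPM in AVP-flox;Cre. It did not overlap either, and its adjusted p was the lowest of the 83 genes (log2 fold change -0.71, SE 0.06, adjusted p = 8.4e-05). Dnajc17, a nuclear protein, went from 22.6 ± 3.91 to 12.4 ± 0.415 TPM (log2 fold change -0.80, adjusted p = 0.00157), and Dnajc30, a mitochondrial protein, from 46.3 ± 2.91 to 33.4 ± 3.01 TPM (log2 fold change -0.46, adjusted p = 0.00421). Dnajc2, which sits on the ribosome, and Dnajc25 had log2 fold changes of -0.30 and -0.70 (adjusted p = 0.0231 and 0.0222). Both calls ended without AVP-flox 1 or AVP-flox;Cre 4, that of Dnajc2 also without AVP-flox 3 or AVP-flox;Cre 1, and that of Dnajc25 also without AVP-flox 4 or AVP-flox;Cre 2 (adjusted p up to 0.061 and 0.0612). The class C sum was 1277 to 1299 TPM in AVP-flox and 1295 to 1388 TPM in AVP-flox;Cre, ranges that overlapped. The 15 class C genes that did not pass had log2 fold changes from -0.35 for Dnajc21 to 0.53 for Dnajc27.

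The cytosolic chaperonin TRiC is a double ring of 8 kinds of subunit in equal copies, which folds actin, tubulin and many other proteins. Of its 8 common subunit genes, 6 fell, Cct4 and Cct7 did not pass and none rose, with a median log2 fold change of -0.32. Cct3 was at 298, 316, 289 and 266 TPM in AVP-flox and 221, 234, 210.5 and 197 TPM in AVP-flox;Cre, and Cct5 was at 332, 302, 298 and 309 TPM in AVP-flox and 243, 259, 243 and 246 TPM in AVP-flox;Cre. Neither gene's groups overlapped, and for Cct5 AVP-flox;Cre 2 was the highest of its group. Their log2 fold changes were -0.44 (SE 0.08, adjusted p = 0.00248) and -0.32 (SE 0.06, adjusted p = 0.00327). Cct8 and Tcp1 fell from 286 ± 30.8 to 224 ± 3.48 TPM and from 171 ± 15.8 to 138 ± 1.82 TPM, with log2 fold changes of -0.34 and -0.30 (adjusted p = 0.0106 and 0.0125). Cct2 and Cct6a had log2 fold changes of -0.32 and -0.36 (adjusted p = 0.0182 and 0.0138), and the call of Cct2 ended without AVP-flox;Cre 3 (0.0547). With the same 3 libraries left out together, only the calls of Cct3 and Cct5 held among the 6, and Cct2, Cct6a, Cct8 and Tcp1 had adjusted p = 0.0748, 0.0962, 0.105 and 0.105. The testis form Cct6b was at 1.98 ± 0.192 and 0.797 ± 0.309 TPM. It was tested only because of its AVP-flox level, which favours a lower call (adjusted p = 0.0275), so that call is not read as a result.

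Cct4, the delta subunit, had the only positive estimate of the 8. It was at 157, 156, 139 and 146 TPM in AVP-flox and 159, 169.8, 144 and 161 TPM in AVP-flox;Cre, with overlapping groups (log2 fold change 0.08, 95% interval of -0.08 to 0.24, adjusted p = 0.447). As a share of the 8 subunits summed it was 8.07, 8.24, 7.75 and 8.76% in AVP-flox 1 to 4 and 10.5, 11, 10.1 and 10.9% in AVP-flox;Cre, higher in every AVP-flox;Cre library. It was singled out after its values were seen, so no test is given. Cct7 had a log2 fold change of -0.21 and passed only without AVP-flox 4 among the single-library omissions (adjusted p = 0.0578, and 0.0212 without it). The whole group of 9 genes summed to 1665 to 1952 TPM in AVP-flox and 1428 to 1544 TPM in AVP-flox;Cre.

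**Figure D4:**
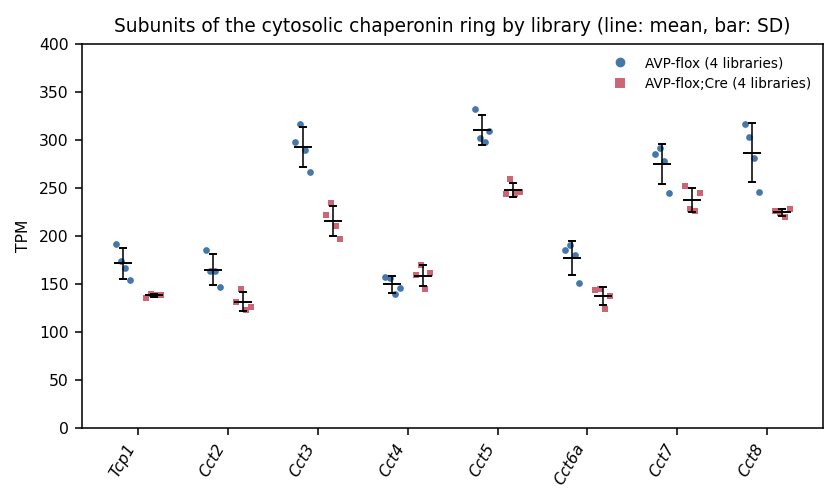
TPM (y axis, from 0) of the 8 cytosolic chaperonin subunit genes (x axis) in each library, with a point per library coloured by group, a line for the mean and a bar for the SD. The AVP-flox;Cre points lie below the AVP-flox points for 6 subunits, while the groups overlap for Cct4 and Cct7.

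Chaperones can also be read by compartment. Of 8 mitochondrial genes, 5 fell, none rose and 3 did not pass, with a median log2 fold change of -0.35. Their summed level was 888 to 1048 TPM in AVP-flox and 695 to 712 TPM in AVP-flox;Cre. Hspa9, the HSP70 of the mitochondrial matrix that pulls in imported proteins, was at 407, 359, 369.7 and 312 TPM in AVP-flox and 205, 203, 202 and 206 TPM in AVP-flox;Cre. The AVP-flox;Cre libraries were nearly level with one another and all lower (log2 fold change -0.82, SE 0.08, adjusted p = 0.000109). Hspd1, the barrel of the mitochondrial chaperonin, was at 139, 126, 126 and 105 TPM in AVP-flox and 73.6, 76.2, 72 and 70.4 TPM in AVP-flox;Cre. Its groups did not overlap (log2 fold change -0.75, SE 0.09, adjusted p = 0.000267). Hspe1, the lid of that barrel, whose gene starts beside Hspd1 and shares exonic bases with it on the other strand, was at 102, 96.4, 94.5 and 82.6 TPM in AVP-flox and 71.6, 87.5, 78.9 and 65.5 TPM in AVP-flox;Cre. The groups overlapped (log2 fold change -0.31, adjusted p = 0.0479), and the call ended without any 1 library other than AVP-flox 4 or AVP-flox;Cre 2 (adjusted p up to 0.113) and under 2 scalings. The ratio of Hspd1 to Hspe1 ran from 1.28 to 1.36 in AVP-flox libraries and from 0.87 to 1.07 in AVP-flox;Cre libraries. Dnajc15 and Dnajc19, of the import machinery of the inner membrane, and Dnajc11 had log2 fold changes of 0.01, -0.04 and -0.21 and did not pass.

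Other mitochondrial chaperones and proteases, a list outside the chosen symbols, held 7 genes that fell, none that rose and 4 that did not pass among 11 tested, with a median log2 fold change of -0.32. Lonp1, the main protease of the matrix, was at 110.0, 110.4, 107 and 105 TPM in AVP-flox and 46.4, 56.3, 42.2 and 43.7 TPM in AVP-flox;Cre. It was lower in all AVP-flox;Cre libraries (log2 fold change -1.19, SE 0.09, adjusted p = 3.45e-05). Grpel1, the exchange factor of Hspa9, fell from 104 ± 8.17 to 59.5 ± 1.78 TPM (log2 fold change -0.79, adjusted p = 8.88e-05). The disaggregase Clpb, the protease subunits Clpp and Spg7, the HSP90 homologue Trap1 and the protease Htra2 also fell, by 0.67, 0.44, 0.36, 0.32 and 0.26 on the log2 scale.

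Of 8 chaperone genes whose proteins act inside the endoplasmic reticulum, Hspa5 fell, Dnajc10 rose and 6 did not pass, with a median log2 fold change of -0.07. Over all genes tested, 14.2% were lower and 13.1% higher, so these counts are not read as a trait of the compartment. With the membrane proteins Dnajb12 and Dnajb14 of class B, whose J domains face the cytosol, 3 of 10 fell, 1 rose and 6 did not pass, and the median was -0.14. Both added genes were called lower and no others were added, so the larger count is not read as a result for the compartment. Hspa5 (BiP), the HSP70 of this compartment and a standard mark of its stress response, was at 967, 787, 835 and 734 TPM in AVP-flox and 594, 559, 570.5 and 605 TPM in AVP-flox;Cre. Its groups did not overlap, and the log2 fold change was -0.51 (SE 0.08, adjusted p = 0.00203). Hsp90b1, the HSP90 of the same compartment, was at 321, 302, 319 and 280.0 TPM in AVP-flox and 278, 286, 294 and 297 TPM in AVP-flox;Cre, with overlap (log2 fold change -0.08, 95% interval of -0.22 to 0.06, adjusted p = 0.392). Dnajb9 and Dnajb11, J-domain partners of Hspa5, had log2 fold changes of -0.07 and -0.20 (adjusted p = 0.744 and 0.0638). For Dnajb11 the groups did not overlap although it missed the threshold, and it passed without AVP-flox 4 (0.0443). Dnajc3, which tempers the kinases that respond to unfolded proteins, had a log2 fold change of 0.17 (adjusted p = 0.197).

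The element through which this compartment's stress response acts, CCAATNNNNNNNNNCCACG on either strand, was in 39 of 32851 windows (0.119%). Among chaperone genes it was in 3 of 91 windows, those of Hspa5, Hsp90b1 and Dnajc3. Only the first of the 3 was called lower. The 3 windows are shown because the genes carry the same element and differ in their calls, with the match in capitals and the strand of the gene 5' to 3' (RefSeq, GRCm38.p6). The Hspa5 window is chr2:34771840-34772139 on the plus strand.
Hspa5: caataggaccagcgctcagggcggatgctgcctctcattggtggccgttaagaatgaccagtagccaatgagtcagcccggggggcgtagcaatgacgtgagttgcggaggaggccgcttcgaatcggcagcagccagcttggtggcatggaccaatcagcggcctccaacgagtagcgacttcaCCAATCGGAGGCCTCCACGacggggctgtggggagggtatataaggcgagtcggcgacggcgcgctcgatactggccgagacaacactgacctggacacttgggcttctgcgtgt
The Hsp90b1 window is chr10:86705395-86705694 on the minus strand, with 2 matches.
Hsp90b1: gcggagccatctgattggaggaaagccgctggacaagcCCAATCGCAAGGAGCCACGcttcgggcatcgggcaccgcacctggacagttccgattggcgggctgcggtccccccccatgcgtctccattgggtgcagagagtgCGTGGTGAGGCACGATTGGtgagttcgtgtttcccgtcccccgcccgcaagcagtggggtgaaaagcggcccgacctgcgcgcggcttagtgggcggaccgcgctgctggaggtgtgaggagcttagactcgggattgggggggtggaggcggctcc
The Dnajc3 window is chr14:118937682-118937981 on the plus strand.
Dnajc3: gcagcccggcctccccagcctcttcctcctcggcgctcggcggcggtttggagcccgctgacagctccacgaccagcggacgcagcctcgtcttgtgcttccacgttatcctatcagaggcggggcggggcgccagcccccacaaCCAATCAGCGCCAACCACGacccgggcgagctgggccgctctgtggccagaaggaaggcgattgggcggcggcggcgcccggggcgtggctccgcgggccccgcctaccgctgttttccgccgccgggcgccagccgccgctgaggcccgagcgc
Among 15 other chaperones of the endoplasmic reticulum, 5 fell, none rose and 10 did not pass, with a median log2 fold change of 0.06. Hyou1, the HSP110-type exchange factor of Hspa5, fell from 40.1 ± 6.53 to 20.2 ± 0.987 TPM (log2 fold change -0.94, adjusted p = 0.000372). Creld2, Calr, Pdia6 and P4hb fell by 0.60, 0.45, 0.28 and 0.25 on the log2 scale, of which Calr binds glycoproteins and Pdia6 and P4hb form disulfide bonds. Calr passed narrowly (limma adjusted p = 0.0472). Its groups overlapped, with AVP-flox;Cre 2 (292.94 TPM) above AVP-flox 3 and 4 (289.73 and 250.38 TPM).

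**Figure D5:**
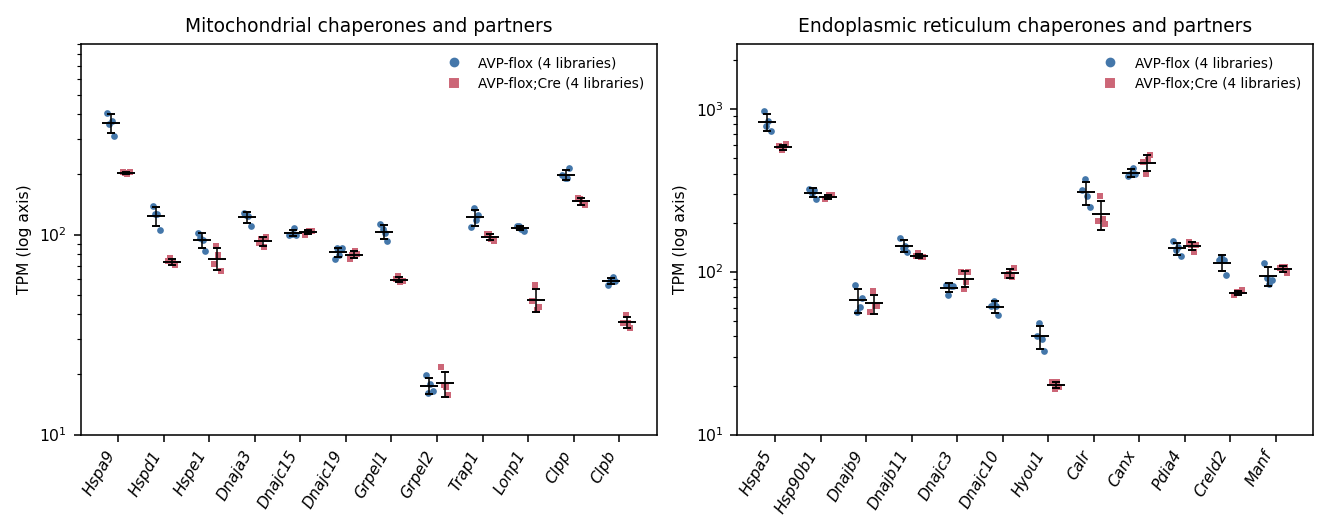
TPM on a log axis in each library for chaperones and partner genes of mitochondria (left) and of the endoplasmic reticulum (right), 12 genes each, with a point per library, a line for the mean and a bar for the SD. Hspa9, Hspd1, Grpel1 and Lonp1 on the left and Hspa5 and Hyou1 on the right are lower in every AVP-flox;Cre library, while Dnajc10 is higher.

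BAG proteins release substrate from HSP70 by exchanging its nucleotide, and several carry a second role. Of 6, Bag3, Bag4 and Bag6 fell, Bag2 rose and 2 did not pass. Bag1, which links HSP70 to the proteasome and was the most abundant of the family, was at 389.6, 350.2, 393 and 399 TPM in AVP-flox and 457, 331, 432 and 372 TPM in AVP-flox;Cre, with overlap (log2 fold change 0.05, 95% interval of -0.18 to 0.27, adjusted p = 0.778). Bag3, which with Hspb8 sends misfolded proteins to autophagy and is a target of Hsf1, was at 51.1, 55.2, 44.9 and 41.8 TPM in AVP-flox and 34.9, 41.7, 26.5 and 36.1 TPM in AVP-flox;Cre. AVP-flox 4 was just above AVP-flox;Cre 2, so that the groups nearly met (log2 fold change -0.47, SE 0.14, adjusted p = 0.0311). Bag6, which guards tail-anchored proteins, and Bag4 had log2 fold changes of -0.37 and -0.30 (adjusted p = 0.0294 and 0.0265). Bag2, an inhibitor of the ubiquitin ligase that works with HSP70, was at 42 ± 6.7 and 57.2 ± 7.16 TPM, with overlapping groups (log2 fold change 0.44, adjusted p = 0.0281). Bag5 missed the threshold although its groups did not overlap (log2 fold change -0.26, adjusted p = 0.051). The 4 BAG calls ended when single libraries were left out. That of Bag3 ended without any 1 library other than AVP-flox 4 or AVP-flox;Cre 2 (adjusted p up to 0.082), and that of Bag2 without any 1 other than AVP-flox 2 or AVP-flox;Cre 4 (up to 0.0715). That of Bag4 ended without AVP-flox 1 or 3 or AVP-flox;Cre 2 or 3 (up to 0.0787), and that of Bag6 without AVP-flox 1, 2 or 3 or AVP-flox;Cre 2 or 3 (up to 0.0798).

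Among 20 other cytosolic partners of HSP70 and HSP90, 5 fell, 2 rose and 13 did not pass, with a median log2 fold change of -0.08. At 5 TPM or more, 19.3% of all genes tested were lower and 17.1% higher, so these counts are not read as a trait of the list. Beside Hspa4l, the myosin chaperone Unc45a fell from 95.4 ± 8.54 to 53.3 ± 2.4 TPM (log2 fold change -0.83, adjusted p = 9.97e-05), and Cacybp, Hspbp1 and the HSP90 co-chaperone Ptges3 fell by 0.52, 0.32 and 0.21. Fkbp8 and Pdcd5 rose by 0.35 and 0.37 on that scale. Stub1, the ubiquitin ligase of HSP70 clients, and Cdc37, which brings kinases to HSP90, did not pass (log2 fold changes 0.11 and -0.09).

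All chaperone genes together summed to 26215, 27402, 23189 and 22262 TPM in AVP-flox and 15554, 16849, 15229 and 14273 TPM in AVP-flox;Cre. Cryab made up 53.8% to 59.0% of that sum in AVP-flox libraries and 38.0% to 42.8% in AVP-flox;Cre libraries. Without Cryab the sums were 11595, 11241, 10703 and 9747 TPM in AVP-flox and 9247, 9715, 8713 and 8847 TPM in AVP-flox;Cre, with AVP-flox 4 just above AVP-flox;Cre 2. The small heat shock proteins summed to 14518 ± 1874 TPM in AVP-flox and 6791 ± 747 TPM in AVP-flox;Cre, and the HSP70 and HSP110 family to 3207 ± 392 and 2521 ± 223 TPM, while the class A J-domain sum was 431 ± 29.7 and 431 ± 34.3 TPM (SD, n = 4 per group).

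Immediate early genes, which handling of tissue can raise along with heat shock genes, were measured as a list. Their sum was 852 to 1317 TPM in AVP-flox and 722 to 1722 TPM in AVP-flox;Cre, and of 11 tested 1 rose (Ier3, log2 fold change 1.68, adjusted p = 8.1e-05), none fell and 10 did not pass. The highest sum was that of AVP-flox;Cre 2, also the highest of all libraries for Hspa1a plus Hspa1b (854 TPM) and for Dnajb1 (120.15 TPM). It was the highest of all libraries for Hspa8 (724.55 TPM) and Dnaja1 (196.38 TPM) as well. For Hsph1 and Hsp90aa1 that library was the highest of its group (288.21 and 189.88 TPM) but below every AVP-flox library. The part of the immediate early genes in the chaperone levels was not tested.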

How the data were processed

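RNA from 4 AVP-flox and 4 AVP-flox;Cre samples was made into cDNA with the SMART-Seq HT kit and sequenced as Nextera XT libraries, per the labels' protocols. The submitters' processing notes name STAR and RSEM without versions. Build and annotation: not given in the sources used here. The values are TPM per gene, made by the authors and deposited in 1 table. Each column sums to 1000000 within 2.04. Depth is unknown, and no counting interval is given. WT columns were taken as AVP-flox and KO columns as AVP-flox;Cre, by replicate number.

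Symbols came from the table. 21883 identifiers had none, and values were summed for 312 symbols with more than 1 identifier, giving 77981 genes. The symbol pattern also matches Hspa4l, which the choice of genes leaves out. With it, 34 of 84 genes were lower.

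Values were taken as log2(TPM + 1), and genes whose mean was 1 TPM or more were tested with limma 3.58.1 in R 4.3.3 (mean-variance trend, two-sided, Benjamini-Hochberg over 19043 genes, threshold 0.05). Summaries used Python 3.11.15, pandas 2.3.3 and numpy 2.4.6. Intervals are 95%. Every tested chaperone gene could be named, and the rule gave full values to those of highest level or lowest adjusted p in each family. The lists, genes and alternatives were chosen with earlier results of these data known. On simulated data with 19043 genes, the test recovered 88.5% of 304 genes changed by 1 on the log2 scale and 99.7% of 296 changed by 2, with 31 false calls in 3 runs. The simulated noise was normal and independent between genes, only genes of higher level were changed, and far fewer changed than were called here. Changes smaller than 1, the size of most chaperone calls, were not simulated, so the recovery of such calls is unknown. Alternatives covered the block, pseudocounts, filters, scalings, limma's settings, sex pattern, GC content and left-out libraries.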

Additional observations from a re-analysis of the deposited data

Results flagged for a closer look

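In 9 of 166 groups of 4 libraries, 1 library lay far from the other 3 of its group by Dixon's criterion. Chance flags about 1 in 20 such groups. 4 of the 9 were AVP-flox;Cre 2. In that library Hsp90aa1 was at 189.88 TPM against 144.84 to 151.56 in the rest of its group, Cct5 at 258.95 TPM against 243.16 to 245.82, Dnajb12 at 21.35 TPM against 24.09 to 24.49, and the cilium-associated Dnajb13 at 0.68 TPM against 2.38 to 2.63. In AVP-flox;Cre 1, Dnajc8 was at 230.43 TPM against 248.99 to 252.05. Among the AVP-flox libraries, replicate 3 had Dnajb5 at 8.70 TPM against 10.08 to 10.30 and Dnajc15 at 107.78 TPM against 99.58 to 100.45. AVP-flox 2 had Dnajc3 at 72.22 TPM against 81.88 to 83.29, and AVP-flox 4 had Dnajb7 at 2.33 TPM against 1.56 to 1.68. Dnajb5, Dnajb7, Dnajb13, Dnajc3 and Dnajc15 were not past the threshold in the comparison of the groups.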

How the results depend on the processing

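Over 26 alternatives, no chaperone gene called in the comparison changed sign. The counts moved by more than 1.5 times in 4 of them. Without a filter on low values, 19 chaperone genes were lower, of 3409 genes called in all. Without 3 libraries (AVP-flox 2 with replicates 2 and 4 of AVP-flox;Cre), 13 were lower, of 2560. With AVP-flox;Cre 1 alone in its group, its spread taken from AVP-flox, 1 was lower (Dnajc9) and 0 higher, of 312, while limma gave 20 lower and 5 higher at an unadjusted p under 0.05. With a smallest log2 fold change of 0.5, 4 were lower (Cryab, Hspa9, Hsph1 and Dnajc12) and 0 higher, of 582, against 8 and 1 at an unadjusted p under 0.05. Leaving out single libraries gave 22 to 33 lower and 5 to 6 higher chaperone genes, of 4006 to 4767. Bag1, not past the threshold, had a log2 fold change of 0.05, and of -0.02 (without AVP-flox;Cre 1) to 0.13 with single libraries left out. The cause was not tested. The replicate numbers did not pair the samples (correlations of same-numbered deviations from the group means of 0.00102 to 0.095, with 2 of 8 libraries closest to their own number), and a replicate block gave 28 lower and 4 higher, of 4431, without the calls of Dnajb12, Dnajc2, Dnajc8, Cct6b, Bag2, Bag4 and Bag6. The unknown depth limits what low genes such as Cct6b can show.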

Other observations

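Prefoldin, the cytosolic complex that passes unfinished actin and tubulin to the chaperonin ring, was measured as a list of genes. Of 9 tested prefoldin and prefoldin-like genes, 1 fell, 2 rose and 6 did not pass, with a median log2 fold change of 0.06. At 5 TPM or more, 19.3% of all genes tested were lower and 17.1% higher, so these counts are not read as a result for prefoldin. Pfdn2 was at 138 ± 6.79 and 102 ± 9.88 TPM in AVP-flox and AVP-flox;Cre (mean ± SD, n = 4 per group, log2 fold change -0.43, limma adjusted p = 0.00357), while Pfdn5 was at 361 ± 15.7 and 466 ± 46.5 TPM (log2 fold change 0.36, adjusted p = 0.00743) and Pdrg1 at 128 ± 17.5 and 187 ± 17.6 TPM (log2 fold change 0.55, adjusted p = 0.00421). Their summed level was 1165 to 1241 TPM in AVP-flox and 1265 to 1432 TPM in AVP-flox;Cre.

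Ubb, which encodes ubiquitin and responds to stress, was at 772, 721, 824 and 763 TPM in AVP-flox and 949, 1013, 954 and 981 TPM in AVP-flox;Cre, and rose (log2 fold change 0.34, adjusted p = 0.00276). Vcp and Sqstm1, which act on ubiquitin-marked proteins, had log2 fold changes of -0.02 and -0.13 and did not pass. Hsf4, Hsf5 and Hsfy2 were under a mean of 1 TPM.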
